A study of Mus musculus with 24 samples.

Results

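Genes of the cytosolic ribosomal proteins were followed in cultured vascular smooth muscle cells. They were the probes whose platform symbol is Rpl or Rps with a number and, where present, a closing a or x, together with Rplp0, Rplp1, Rplp2 and Rpsa. This gave 74 of the 25697 probes, for 57 of the 16593 genes named on the arrays, of which 35 belong to the large and 22 to the small ribosomal subunit. Of these, 51 genes (31 large, 20 small) were above background and are described by their brightest kept probe. The other 6 genes, Rpl6, Rpl14, Rpl17, Rplp2, Rps23 and Rpsa, had no probe detected on at least 4 of the 24 arrays. Of their probes, 1 of Rpsa was detected on 2 arrays and the others on 0, so nothing is said of the RNA of these 6 genes.

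The cells were primary vascular smooth muscle cells from the carotid artery of male C57bl6 mice. PMCA4, the product of Atp2b4, is a calcium pump of the plasma membrane that exports calcium, and PMCA4b is a splice form of it. The groups were PMCA4 knockout cells electroporated with PMCA4b DNA (5 arrays), knockout cells electroporated with a vector called B (4 arrays) or A (5 arrays), knockout cells (5 arrays) and wild-type cells (5 arrays). The first 4 groups thus share the knockout. All cells were synchronized by serum, stimulated with serum and PDGF-BB, a growth factor for smooth muscle, and collected late in G1 or at entry into S phase, so all groups had a growth stimulus. The animals' age, the promoter on the PMCA4b DNA, and the difference between the vectors are not given in the labels, which also do not say whether the arrays of a group came from separate cultures or animals. The p-values therefore measure only the spread between these arrays, which may be technical.

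The ribosome is built from a large and a small subunit, each made of ribosomal RNA and of proteins, most of which are needed in equal copy number. The genes of these proteins are among the most highly transcribed of a dividing cell, and their RNAs are very stable. Many of these RNAs start with a C followed by a run of pyrimidines, the terminal oligopyrimidine tract, through which mTORC1 signalling controls their translation. That control acts on ribosome loading, which an array of total RNA does not measure. Signals to grow also raise nucleolar production of ribosomal RNA, in part through Myc. These genes have many processed pseudogenes in the mouse, and a probe may also bind RNA of near-identical copies. The probe sequences were not used here.

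Start sequences were examined because the tract defines the class of translationally controlled RNAs, and they show which of the genes carry it at an annotated start. RefSeq promoters (GRCm38.p6) matched 48 of the 57 genes, with 57 starts. A tract was counted where the first base is C and each of the next 4 bases is C or T, read on the gene's strand. It was present at 11 of the 57 starts (19.3%) and at 2.51% of all 32851 RefSeq starts. RefSeq starts need not be the bases where transcription begins in these cells, and no match says only that the letters are not at the annotated start. The windows below hold 30 bases each, and base 16 is the annotated start. Capitals mark the tract of the 9 genes that have one and were above background.
Rpl28 (chr7:4792950-4792979, + strand): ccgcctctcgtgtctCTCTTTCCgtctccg
Rpl35 (chr2:39005117-39005146, - strand): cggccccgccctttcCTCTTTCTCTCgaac
Rpl35a (chr16:33056467-33056496, + strand): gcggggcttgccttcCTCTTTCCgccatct
Rpl38 (chr11:114668565-114668594, + strand): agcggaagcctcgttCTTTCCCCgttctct
Rps6 (chr4:86857353-86857382, - strand): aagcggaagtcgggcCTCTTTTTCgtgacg
Rps10 (chr17:27635230-27635259, - strand): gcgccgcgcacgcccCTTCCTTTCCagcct
Rps15a (chr7:118116133-118116162, - strand): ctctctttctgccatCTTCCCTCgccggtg
Rps21 (chr2:180257364-180257393, + strand): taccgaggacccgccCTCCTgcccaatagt
Rps27 (chr3:90213634-90213663, - strand): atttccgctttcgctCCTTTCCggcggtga
Rplp0, Rps13 and Rps16 are among the 4 largest rises with PMCA4b against vector, and Rpl4 is the largest fall. Their windows, shown for contrast, do not have the tract at the annotated start.
Rps13 (chr7:116334176-116334205, - strand): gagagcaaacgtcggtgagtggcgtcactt
Rps16 (chr7:28350674-28350703, + strand): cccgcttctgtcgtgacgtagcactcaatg
Rplp0 (chr5:115559452-115559481, + strand): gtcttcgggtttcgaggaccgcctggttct
Rpl4 (chr9:64173372-64173401, + strand): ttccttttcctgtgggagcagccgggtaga

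In the promoters, from 250 bases before to 50 after the start, GGGCGG on either strand was found in 63.2% of the 57 ribosomal protein promoters and in 35.7% of all promoters. CCGGAAG was found in 35.1% against 8.86%, AAGATGGC in 12.3% against 2.75%, and TATAAA in 8.77% against 13.6%, each on either strand. CCGGAAG ends with the letters AAG that begin AAGATGGC, and the complement of GGGCGG ends with the letters CC that begin CCGGAAG, so matches can overlap. The 57 promoters belong to 48 genes, and windows of a gene with several starts can overlap. A single site can then be counted more than once, as AAGATGGC was for Rpl35a. These shares describe the sequences, not sites bound by a factor. The first 265 bases of the promoters of the largest changes in both directions are shown, with every match to these motifs on either strand in capitals. Rps13 and Rplp0 each have GGGCGG or its complement there once, and the stretch of Rpl4 has none of the motifs searched.
Rps13 (chr7:116334176-116334440, - strand): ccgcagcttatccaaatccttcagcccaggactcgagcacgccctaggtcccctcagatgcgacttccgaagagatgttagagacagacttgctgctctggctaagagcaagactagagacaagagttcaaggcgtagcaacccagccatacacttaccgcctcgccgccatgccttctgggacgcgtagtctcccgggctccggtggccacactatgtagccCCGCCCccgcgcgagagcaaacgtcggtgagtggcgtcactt
Rplp0 (chr5:115559217-115559481, + strand): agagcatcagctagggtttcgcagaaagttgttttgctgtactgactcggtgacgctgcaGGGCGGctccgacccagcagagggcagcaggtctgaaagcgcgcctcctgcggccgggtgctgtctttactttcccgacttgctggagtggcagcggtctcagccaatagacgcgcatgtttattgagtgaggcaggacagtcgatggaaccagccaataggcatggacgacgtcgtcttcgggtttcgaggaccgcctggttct
Rpl4 (chr9:64173137-64173401, + strand): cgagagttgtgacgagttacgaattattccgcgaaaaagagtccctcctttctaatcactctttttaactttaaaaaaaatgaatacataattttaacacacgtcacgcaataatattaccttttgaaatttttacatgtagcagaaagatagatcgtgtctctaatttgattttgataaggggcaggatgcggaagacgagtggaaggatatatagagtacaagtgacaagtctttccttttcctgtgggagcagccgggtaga

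Each array detected 36.95% to 40.49% of its probes, and mean intensity ran from 601.64 to 765.27. The columns of the intensity table fall into 3 consecutive sets of 8, and whether a set is a chip is not stated. Vector A lies wholly in the third set, which has the lowest mean intensities (601.64 to 633.83), and vector B wholly in the first 2 sets. The other groups are spread over all 3 sets. Only 1 Atp2b4 probe was kept. It read 5.88 to 7.27 with PMCA4b (median 6.86), 6.45 to 7 with vector B, 6.41 to 6.81 with vector A, 6.63 to 7.07 in knockout cells and 6.55 to 7.13 in wild-type cells. The difference of 0.03 between knockout and wild-type cells had a limma adjusted p of 0.881, so this probe checks neither the deletion nor the added pump. Among the smooth muscle markers Acta2, Tpm1, Tpm2 and Smtn were detected on all 24 arrays, Cald1 on 15 and Tagln on 14, whereas Cnn1, Myh11 and Des were detected on 0. Tagln, an actin-binding protein of smooth muscle, averaged 6.54 with PMCA4b, 4.95 with vector B, 5.52 with vector A, 10.11 in knockout and 8.5 in wild-type cells. All 7 endothelial and 4 adipocyte markers were at 0 of 24 arrays. Of other cells' markers, Cd14, Thy1, Col1a1, Col1a2 and Sox9 were detected on 24 arrays, Fbln1 on 23, Dcn, Pdgfra and Dpt on 19, Cdh1 on 9, Col2a1 on 4, Myog on 2 and Cd3e on 1. The leukocyte markers Ptprc, Itgam and Lyz2, the fibroblast marker Lum and the chondrocyte markers Acan and Matn1 were detected on 0 arrays. So were S100b, Krt18, Myod1 and Ckm. Cd14 or Sox9 alone therefore does not show leukocytes or chondrocytes. Cd14 normalised intensity was 368.8 to 400 with PMCA4b, 482.9 to 549 with vector B, 328.6 to 374.9 with vector A, 107.4 to 126 in knockout and 242.3 to 318.7 in wild-type cells. The summed normalised intensity of the 6 kept smooth muscle markers was 50390 to 56770 with PMCA4b, 31030 to 32470 with vector B, 28440 to 30050 with vector A, 83160 to 88200 in knockout and 38960 to 44550 in wild-type cells. Acta2, the brightest of the 6, weighs most in this sum and averaged 15.08 with PMCA4b and 14.56 in wild-type cells. Tpm1 (13.91 and 13.5) and Cald1 (6.75 and 5.83) were also higher with PMCA4b than in wild-type cells. Tagln, Smtn (9.82 and 10.42) and Tpm2 (11.26 and 12.03) were lower. The sum of 7 kept fibroblast markers was 11640 to 13370 with PMCA4b, 16410 to 17800 with vector B, 14460 to 15410 with vector A, 36710 to 40530 in knockout and 6255 to 7260 in wild-type cells. These markers did not move together. In knockout against wild-type cells 5 rose, and Pdgfra (-0.47) and Fbln1 (-0.96) fell. Thy1 averaged 14.81 in knockout and 9.43 in wild-type cells, whereas Dcn was highest with vector B (13.02) and vector A (12.53). Both sums differed between the groups more than the ribosomal protein genes did, and their part in the results below was not tested.

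The ribosomal protein genes held a larger share of the array signal with PMCA4b than in any other group. All 74 probes together made up 8.71% ± 0.297 of the summed intensity with PMCA4b (SD, n = 5). The share was 7.89% ± 0.0707 with vector B (SD, n = 4), 7.587% ± 0.115 with vector A, 7.779% ± 0.151 in knockout cells and 7.713% ± 0.259 in wild-type cells (SD, n = 5 each). The lowest PMCA4b array, 8.374%, lay above the highest of the other 19 arrays, a wild-type array at 8.125%. Within each of the 3 column sets the PMCA4b arrays were also highest: 8.612% and 8.665% in the first set, 8.374% and 8.71% in the second and 9.189% in the third. Large subunit probes took 4.897% ± 0.17 with PMCA4b and 4.363% to 4.667% on the vector arrays. Small subunit probes took 3.814% ± 0.129 with PMCA4b and 3.052% to 3.319% on the vector arrays. These shares use the deposited intensities with no scaling between arrays, and no test was made on them. Bright probes of all genes, members included, were also more numerous with PMCA4b. On average 61.6 probes reached at least 0.5 of the highest intensity of their array, against 41.4 to 49.8 in the other groups. At 0.8 of the highest intensity there were 21, against 12 to 17.4. Ribosomal protein probes were part of these counts. At 0.5 they averaged 23 with PMCA4b and 14.2 to 19 in the other groups, and at 0.8 7.8 and 4.8 to 6.2. Whether the larger share is particular to the ribosomal protein genes was not tested.

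**Figure D1:**
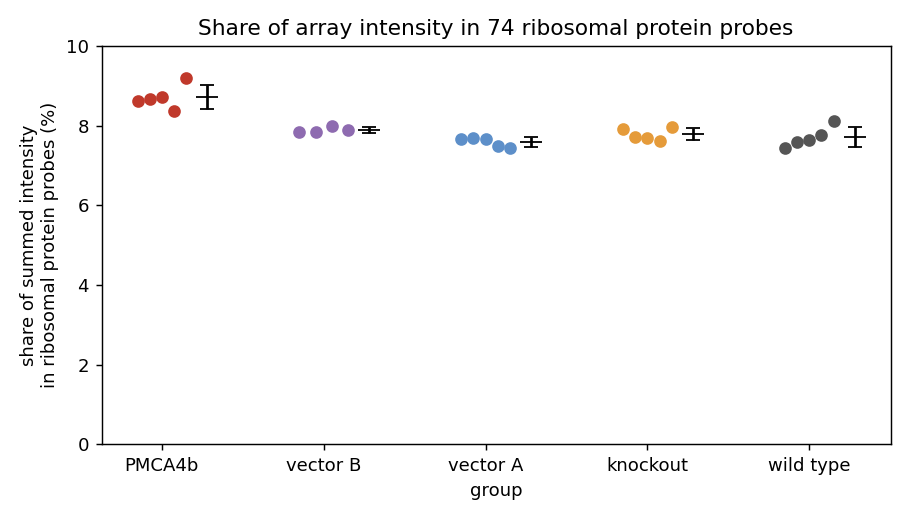
Share of each array's summed intensity held by the 74 ribosomal protein probes (vertical axis, percent) in the 5 groups (horizontal axis). Points are arrays and bars are mean ± SD. The PMCA4b arrays sit between 8.374% and 9.189%, all above the other arrays.

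The genes lie at the bright end of the arrays, where the scale limits what can be seen. Values are normalised log2 intensities, and 1 unit is a doubling of the intensity after an offset of 16. The median over the 51 genes was 14.46, against 8.92 over all 7675 genes. They made up 10 of the 20, 24 of the 50 and 30 of the 100 brightest genes, although brightness depends on the probe and does not rank RNA amounts between genes. A probe was taken to be near the top where it reached at least 0.8 of the highest intensity of its array. Rplp1, a stalk protein of the large subunit, Rpl41, a very short basic peptide at the interface of the subunits, and Rps20, in the head of the small subunit, were near the top on all 24 arrays. Rps12 was near the top on 23 arrays, Rpl38 on 22, Rps2 on 15, Rpl37 on 7, and Rpl9 and Rps19 on 3 each. The other 42 genes were near the top on no array. Rplp1 had group means from 15.98 to 16.02 and Rpl41 from 15.91 to 15.97. For such probes an unchanged reading does not show an unchanged RNA.

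The 5 group means of a ribosomal protein gene spanned a median of 0.40, against 0.82 over all genes, and the pooled SD within groups was 0.08 against 0.12. Hence even small differences passed the test: the smallest called difference with PMCA4b against vector was 0.10. PMCA4b was the group with the highest mean for 27 of the 51 genes (52.9%), against 25.6% of all genes, and vector B for 13, vector A for 6, wild type for 5 and knockout for 0. Vector A had the lowest mean for 24 of the 51 (47.1%, against 26.1% of all genes), knockout for 16 (31.4% against 15.7%), wild type for 6, PMCA4b for 5 and vector B for 0. The widest spans were those of Rps13 (1.05), Rplp0 (1.03) and Rps15a (0.95).

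With PMCA4b against vector, most ribosomal protein genes rose, by up to 1.97-fold. Of the 51 genes 28 rose, 8 fell and 15 did not pass an adjusted p under 0.05 in limma, with the average of the vector A and vector B means as the reference. Of all 7675 genes 78.8% passed, 38.3% as higher and 40.5% as lower. The 36 genes that passed are 70.6% of the 51, below the share over all genes, but they lie more to one side. The median difference was 0.16 over the 51 genes and -0.01 over all genes. Large subunit genes rose in 16 and fell in 6 of 31 cases, and small subunit genes rose in 12 and fell in 2 of 20. At least 1.5-fold, 8 were higher and 1 lower, where 36.8% of all genes passed this rule in either direction. In 24 of the 51 genes the arrays did not overlap (51.3% of all genes).

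Rplp0, the scaffold of the stalk that recruits elongation factors, had the largest rise. Rplp0 read 11.29, 11.63, 11.49, 11.50 and 11.36 with PMCA4b, 10.58, 10.49, 10.50 and 10.53 with vector B, 10.54, 10.42, 10.47, 10.30 and 10.36 with vector A, 10.92, 10.94, 11.02, 10.84 and 10.68 in knockout cells and 11.10, 11.31, 11.03, 11.10 and 10.84 in wild-type cells. All 5 PMCA4b arrays were above the 9 vector arrays, and 4 of them above every knockout and wild-type array. The log2 difference from vector was 0.98 (SE 0.069, 1.97-fold, adjusted p = 4.68e-12).

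Rps13, a small subunit protein at the face that meets the large subunit, rose as much. Rps13 read 14.51, 14.56, 14.49, 14.62 and 14.62 with PMCA4b, 13.72, 13.68, 13.50 and 13.71 with vector B, 13.50, 13.56, 13.51, 13.48 and 13.52 with vector A, 14.22, 14.20, 14.15, 14.15 and 14.26 in knockout cells and 14.06, 13.96, 14.23, 14.14 and 14.22 in wild-type cells. The 3 levels were apart, with all PMCA4b arrays above all knockout and wild-type arrays and these above all vector arrays. The difference from vector was 0.98 (SE 0.047, 1.97-fold, adjusted p = 3.4e-15). Rps16, whose tail reaches the P-site tRNA, showed a like order. Rps16 read 14.72, 14.72, 14.65, 14.69 and 14.78 with PMCA4b, 13.94, 13.99, 13.85 and 13.75 with vector B, 13.90, 13.88, 13.82, 13.73 and 13.78 with vector A, 14.34, 14.28, 14.28, 14.17 and 14.40 in knockout cells and 14.34, 14.22, 14.31, 14.35 and 14.65 in wild-type cells. The highest wild-type array, at 14.65, reached the lowest PMCA4b value. Rps16 was 1.81-fold higher with PMCA4b than with vector (log2 0.86, SE 0.0578, adjusted p = 2.13e-12).

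Rpl27a, a large subunit protein, averaged 11.76 ± 0.0672 with PMCA4b (SD, n = 5), against 10.93 ± 0.199 with vector B (SD, n = 4) and 10.82 ± 0.0513 with vector A (SD, n = 5). Its difference of 0.88 (SE 0.0597, 1.84-fold, limma adjusted p = 2.58e-12) came with no overlap of arrays. Rps15a, the dimmest of the genes, averaged 7.80 ± 0.141 with PMCA4b, against 7.24 ± 0.139 with vector B and 6.85 ± 0.211 with vector A, a rise of 1.69-fold (log2 0.76, SE 0.103, limma adjusted p = 4.18e-07). Rpl21 rose 1.66-fold, Rpl29 1.61-fold and Rpl30 1.54-fold, each with no overlap between PMCA4b and vector arrays. RPL30 of yeast binds its own RNA and blocks its splicing, a feedback known from that species. Rps15, on the head of the small subunit, was 1.25-fold higher (adjusted p = 7.54e-08 in limma) and Rpl24 1.30-fold. The remaining called rises ran from 0.10 for Rpl35 to 0.53 for Rpl7a. The call of Rpl35 was lost without PMCA4b replicate 2, 3, 4 or 5, vector A replicate 2 or vector B replicate 1 (0.08 to 0.09, adjusted p = 0.0523 to 0.0712 in limma), under cyclic loess (0.07) and without the third column set (0.01). Rpl3, close to the peptidyl transferase centre, did not pass (-0.09, adjusted p = 0.116 in limma).

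Rps6, the substrate of the S6 kinases downstream of mTORC1, was 0.52 higher with PMCA4b than with vector (SE 0.0406, 1.44-fold, adjusted p = 2.83e-11). Rps6 read 14.09, 14.10, 14.05, 13.93 and 13.99 with PMCA4b, 13.57, 13.62, 13.55 and 13.52 with vector B, 13.42, 13.50, 13.41, 13.49 and 13.41 with vector A, 14.17, 14.28, 14.10, 14.17 and 14.09 in knockout cells and 14.28, 14.28, 14.33, 14.22 and 14.36 in wild-type cells. Its PMCA4b arrays lay above all vector arrays and overlapped the lower end of the knockout arrays. Rps2, at the entry channel for mRNA, was near the top on all PMCA4b, knockout and wild-type arrays and on 0 vector arrays. Rps2 read 15.98, 15.88, 15.92, 15.81 and 15.94 with PMCA4b, 15.62, 15.56, 15.56 and 15.50 with vector B, 15.35, 15.31, 15.35, 15.32 and 15.46 with vector A, 15.89, 15.78, 15.85, 15.85 and 15.85 in knockout cells and 15.89, 15.89, 15.89, 15.94 and 15.94 in wild-type cells. Rps2 was therefore at least 1.36-fold higher with PMCA4b than with vector (adjusted p = 5.64e-11). Rpl22, whose near copy Rpl22l1 can replace it, averaged 10.19 ± 0.104 with PMCA4b, 9.82 ± 0.0223 with vector B and 9.74 ± 0.0258 with vector A, 1.33-fold higher (adjusted p = 1.72e-09 in limma).

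The 8 genes that fell with PMCA4b against vector were Rpl4, Rpl5, Rpl12, Rps7, Rpl39, Rpl31, Rpl10 and Rps20. Rpl4, a large subunit protein with a loop that reaches into the exit tunnel, stood apart. Rpl4 read 10.33, 10.39, 10.46, 10.52 and 10.31 with PMCA4b, 11.01, 11.02, 10.94 and 11.20 with vector B, 11.19, 11.24, 11.24, 11.02 and 11 with vector A, 11.07, 11.06, 10.94, 11.05 and 11.08 in knockout cells and 10.83, 10.94, 10.96, 10.81 and 10.90 in wild-type cells. All PMCA4b arrays lay below all others. Rpl4 was 1.61-fold lower than with vector (log2 -0.69, SE 0.0524, adjusted p = 2.24e-11). Rpl5, which binds a small ribosomal RNA and, when free, the p53 regulator Mdm2, was 1.32-fold lower (log2 -0.40, SE 0.0816, adjusted p = 9.95e-05), although arrays of the groups overlapped. Rpl12, at the base of the stalk, was 1.22-fold lower with no overlap. Rpl12 read 14.69, 14.65, 14.75, 14.59 and 14.65 with PMCA4b, 14.88, 15.07, 15.06 and 15.05 with vector B, against 14.88, 14.93, 14.94, 14.78 and 14.91 with vector A. The fall of Rpl12 did not pass under median scaling (-0.10), 75th percentile scaling (-0.04) or without scaling (-0.05). The directions of Rps7, Rpl39, Rpl31, Rpl10 and Rps20 also depended on the scaling. Rpl31 was -0.14 here and 0.14 with 75th percentile scaling, and its call was lost without PMCA4b replicate 4 (-0.11, adjusted p = 0.0884 in limma). Rps7 was -0.25 here and 0.02 with 75th percentile scaling. Rpl39, in the exit tunnel, was -0.20 here and 0.06 with that scaling, and Rpl10, a protein added late to the large subunit, was -0.11 here and 0.16. The call of Rpl10 was also lost without PMCA4b replicate 1, 2 or 4 (-0.10 to -0.09, adjusted p = 0.0562 to 0.0687 in limma). Rps20 was 0.01 with 75th percentile scaling and was near the top in every group, so no fold is given for it.

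**Figure D2:**
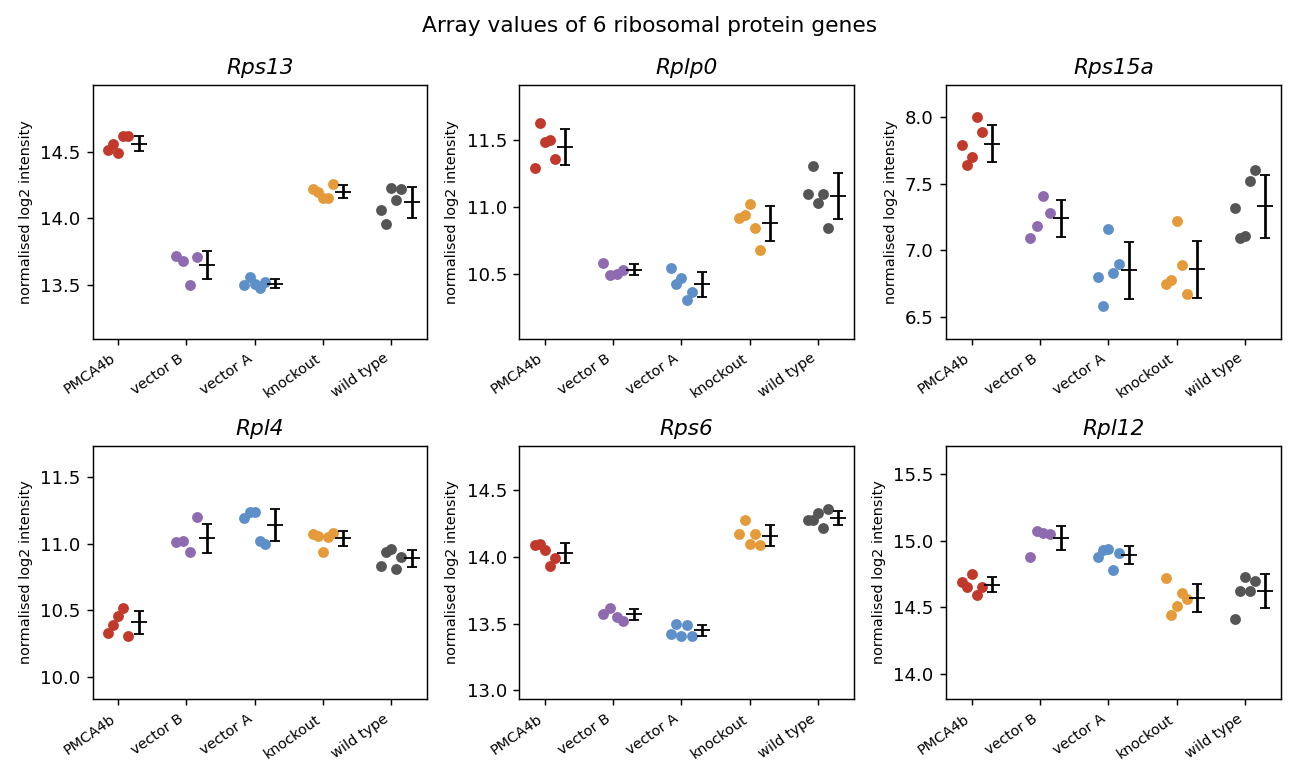
Normalised log2 intensity (vertical axes, each 1.9 units high) of 6 ribosomal protein genes in the 5 groups (horizontal axes). Points are arrays in replicate order and bars are mean ± SD. PMCA4b is highest for Rps13, Rplp0 and Rps15a and lowest for Rpl4, the vector groups are lowest for Rps6 and highest for Rpl12.

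The count for PMCA4b against vector depended on the reference and on the scaling. Against vector A alone, 32 genes rose and 6 fell (38.8% and 40% of all genes, 78.8% together), and against vector B alone, 25 rose and 8 fell (34.4% and 37.8% of all genes, 72.2% together). Under median scaling 37 rose and 2 fell, under 75th percentile scaling 42 and 2, without scaling 38 and 2, and under cyclic loess 28 and 11. Of all 7675 genes these settings gave, in that order, 2777 higher and 3170 lower, 3097 and 2974, 2857 and 2892, and 2687 and 3351. Within the column sets the median difference was 0.09 and 0.04 in the first and second sets, where the reference is vector B, and 0.26 in the third, where it is vector A. The counts in the first 2 sets were 15 higher and 3 lower, and 16 and 6. Over all genes these fits called 2083 higher and 2419 lower, and 2152 and 2428. Without the third set, and so without vector A, 20 rose and 8 fell, with a median of 0.08. Over all genes 2597 rose and 2854 fell there.

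**Figure D3:**
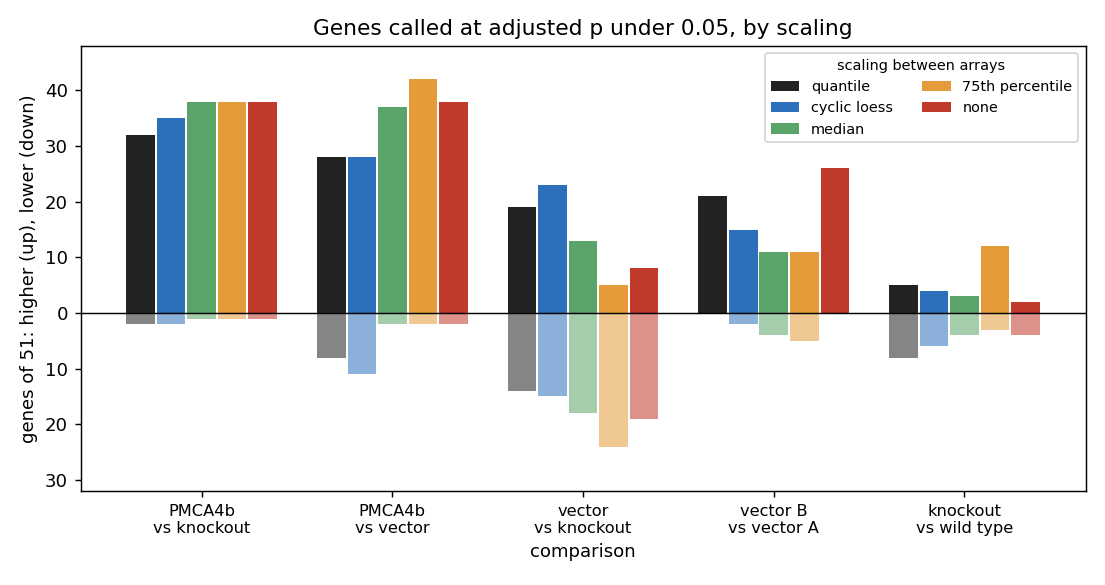
Number of the 51 genes called higher (bars up) or lower (paler bars down) at an adjusted p under 0.05 in 5 comparisons (horizontal axis), with 5 ways of scaling between arrays (colours). PMCA4b has more higher than lower genes in both of its comparisons under every scaling shown, while vector against knockout and knockout against wild type change sides with the scaling.

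The differences were larger for dimmer probes. The 11 genes above 0.5 of the top on all arrays had a median difference of 0.00 between PMCA4b and vector, with 3 higher and 1 lower. The 28 other genes with a mean of at least 13 had a median of 0.16, with 15 higher and 6 lower. The 12 genes with a mean under 13 had a median of 0.58, with 10 higher and 1 lower. Over all genes, whatever their level, 38.3% were higher and 40.5% lower. These bands share the top of the scale with the level of the genes, so compression of bright probes and a true dependence on level cannot be told apart.

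**Figure D4:**
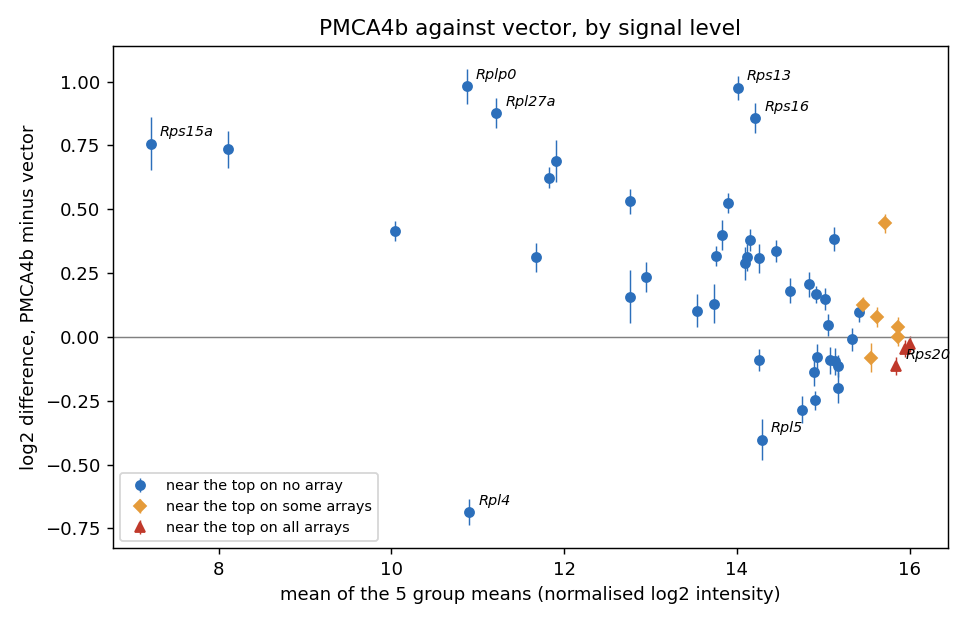
Log2 difference between PMCA4b and vector (vertical axis, bars are SE) against the mean of the 5 group means (horizontal axis, normalised log2 intensity) for the 51 genes. Orange diamonds and red triangles are near the top of the scale on some or all arrays, and their differences lie close to 0 apart from Rps2 at 0.44.

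PMCA4b against knockout cells compares the cells that received the pump DNA with the cells that were not electroporated. Of the 51 genes 32 rose, 2 fell and 17 did not pass, while of all genes 69.3% passed, 35.9% as higher and 33.3% as lower. The median difference was 0.19, and 0.03 over all genes. Large subunit genes rose in 20 and fell in 1 of 31 cases, and small subunit genes rose in 12 and fell in 1 of 20. The sizes were small: at least 1.5-fold, 1 gene was higher and 1 lower, where 26.8% of all genes passed. The arrays did not overlap for 25 of the 51 genes (52.5% of all genes). The count was 33 rises and 3 falls with column set as a block, and under the other scalings 35 to 38 rose and 1 or 2 fell. Of all genes the block gave 2835 higher and 2619 lower, and the other scalings 2499 to 2871 higher and 2187 to 2771 lower. In the first 2 sets 16 and 20 genes rose and 1 fell in each. Over all genes 1995 rose and 1991 fell in the first, and 2078 and 2022 in the second. The medians of the 51 genes in the 3 sets were 0.19, 0.19 and 0.18. This comparison shares its PMCA4b arrays with the one against vector, so they are not independent.

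Rps15a rose most against knockout. Rps15a read 7.79, 7.64, 7.70, 8 and 7.89 with PMCA4b, against 6.75, 6.78, 7.22, 6.89 and 6.67 in knockout cells. The groups did not overlap, and the difference was 0.94 (SE 0.116, 1.92-fold, adjusted p = 1.46e-07). Rplp0 was 1.49-fold higher (log2 0.57, SE 0.078, adjusted p = 6.67e-07), Rpl29 and Rpl21 1.41-fold and 1.40-fold, and Rps16 1.34-fold, each with no overlap. Rps13 was 1.29-fold higher (log2 0.36, adjusted p = 1.95e-06). Rpl37, near the top with PMCA4b, was at least 1.13-fold higher (adjusted p = 0.00172). Rpl13a, which in human cells can leave the ribosome to silence inflammatory mRNAs, was 1.25-fold higher, and Rps3, which lines the mRNA entry channel and has a known role in DNA repair, 1.31-fold. Rps4x was 1.23-fold, Rpl7a 1.33-fold, Rpl24 1.30-fold and Rps25, which some viral RNAs need to start translation, 1.32-fold higher. The 2 falls were Rpl4, 1.56-fold lower with no overlap (log2 -0.64, SE 0.0593, adjusted p = 1.42e-09), and Rps6, 1.10-fold lower (log2 -0.13, adjusted p = 0.0146). The call of Rps6 was lost without PMCA4b replicate 4 or knockout replicate 2 (-0.10, adjusted p = 0.0532 and 0.0588 in limma) and under median (-0.07) and 75th percentile (-0.08) scaling. Rps19, a protein whose loss causes an anaemia in humans, was 0.15 higher by its bright probe (1.11-fold, adjusted p = 0.000452), which was near the top on 3 PMCA4b arrays, while its dimmer probe read the other way.

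**Figure D5:**
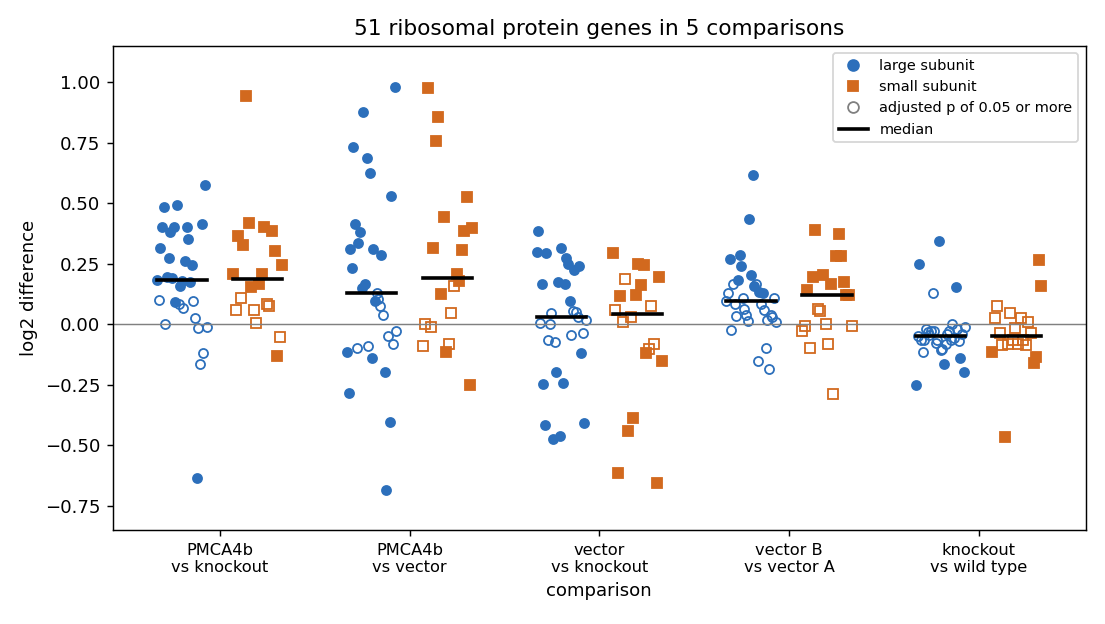
Log2 difference (vertical axis) of the 31 large subunit (blue circles) and 20 small subunit genes (orange squares) in 5 comparisons (horizontal axis). Filled symbols have an adjusted p under 0.05 and bars are medians. The medians of both subunits lie near 0.19 for PMCA4b against knockout and near -0.05 for knockout against wild type.

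The vector groups against knockout cells compare electroporated with other cells of the same genotype. Of the 51 genes 19 rose, 14 fell and 18 did not pass, and of all genes 74.4% passed, 39.6% as higher and 34.8% as lower. The median was 0.03 over the 51 genes and over all genes alike. Large subunit genes rose in 12 and fell in 8 cases and small subunit genes rose in 7 and fell in 6. At least 1.5-fold, 0 were higher and 2 lower (30% of all genes passed), and in 15 genes the arrays did not overlap (43.5% of all genes). The split turned with the scaling: 13 rose and 18 fell under median scaling, 5 and 24 under 75th percentile scaling, 8 and 19 without scaling, and 23 and 15 under cyclic loess. Over all genes these settings gave, in that order, 3308 higher and 2323 lower, 2928 and 2742, 2863 and 2392, and 3095 and 2595. The vectors also differed, with 15 rises and 19 falls for vector A (39.3% and 35.8% of all genes, 75.1% together) and 20 rises and 8 falls for vector B (36.3% and 30.9% of all genes, 67.2% together). Within the first set 11 rose and 8 fell and within the second 9 and 8, both with vector B. Over all genes 2100 rose and 1822 fell in the first, and 2166 and 1881 in the second. In the third set, with vector A, the median of the 51 genes was -0.01, against 0.07 and 0.10 in the first 2.

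The falls were larger than the rises. Rps6 was 1.57-fold lower with vector than in knockout cells (log2 -0.65, SE 0.0406, adjusted p = 6.05e-13), and its vector arrays, 13.41 to 13.62, lay below its lowest knockout array at 14.09. Rps13 was 1.53-fold lower (log2 -0.61, SE 0.047, adjusted p = 3.14e-11), Rpl27a 1.39-fold, Rpl30 1.38-fold and Rps16 1.36-fold lower, all with no overlap. Rpl22 was 1.33-fold and Rplp0 1.33-fold lower, and Rps2, near the top in knockout cells, at least 1.31-fold lower (adjusted p = 9.11e-10). The largest rise was that of Rpl12. Rpl12 read 14.88, 15.07, 15.06 and 15.05 with vector B, 14.88, 14.93, 14.94, 14.78 and 14.91 with vector A, against 14.72, 14.44, 14.51, 14.61 and 14.56 in knockout cells. Each of the 9 vector arrays read higher than each of the 5 knockout arrays, and Rpl12 was 1.31-fold higher (log2 0.38, SE 0.0539, adjusted p = 8.68e-07). Rpl31 was 0.32, Rpl10 0.30, Rps10 0.30 and Rpl23 0.29 higher, each with no overlap. Smaller calls were lost under other settings. Rpl5 (0.24, adjusted p = 0.0112) was lost without knockout replicate 2 (0.16, adjusted p = 0.0654 in limma), under 75th percentile (0.10), median (0.17) and no scaling (0.12), and without the third column set (0.20). Rps9 (-0.15, adjusted p = 0.025) was lost without knockout replicate 2 or 3 (-0.14 to -0.12, adjusted p = 0.0599 to 0.0896 in limma) and without the third set (-0.16), and was 0.04 as a mean of its probes. Rpl7a (-0.12, adjusted p = 0.0346) was lost without knockout replicate 2 or 5, vector A replicate 3 or 4, or vector B replicate 1 or 3 (-0.11 to -0.09, adjusted p = 0.0535 to 0.117 in limma), and without the third set (-0.07).

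Vector B against vector A compares controls that carry the same treatment label. Of the 51 genes 21 rose with vector B (10 large and 11 small subunit genes), 30 did not pass and 0 fell in limma. At an unadjusted p under 0.05, 21 were higher and 1 lower. Of all genes 53.4% passed, 27.9% as higher and 25.5% as lower, and the median difference was 0.11 over the 51 genes and 0.00 over all genes. Only Rpl34 passed 1.5-fold, where 11.9% of all genes passed. In 20 genes the arrays did not overlap (46.6% of all genes). The vectors lie in different column sets and share none, but the other groups span all 3. With column set as a block, 19 genes rose and 0 fell, with a median of 0.11, while over all genes 1648 rose and 1500 fell. The sides moved with the scaling: 11 rose and 4 fell under median scaling, 11 and 5 under 75th percentile scaling and 15 and 2 under cyclic loess. Over all genes these settings gave, in that order, 2029 higher and 1869 lower, 2059 and 1971, and 2155 and 1915. Without scaling 26 rose, but there the median of all genes itself was 0.16 higher with vector B, and 2903 of all genes rose and 809 fell.

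Rpl34, a large subunit protein, was the clearest difference between the vectors. Rpl34 read 14.26, 14.22, 14.23, 14.20 and 14.35 with PMCA4b, 14.30, 14.28, 14.17 and 14.24 with vector B, 13.66, 13.68, 13.53, 13.68 and 13.60 with vector A, 14.23, 14.12, 14.10, 14.21 and 14.24 in knockout cells and 14.36, 14.30, 14.08, 14.20 and 14.48 in wild-type cells. Vector A stood below all other groups, which overlapped each other. Rpl34 was 1.54-fold higher with vector B (log2 0.62, SE 0.0631, adjusted p = 2.4e-08). Rpl30 was 1.35-fold higher (log2 0.43, SE 0.0492, adjusted p = 1.18e-07) and Rps27, a zinc finger protein of the small subunit, 1.30-fold higher (log2 0.38, SE 0.0589, adjusted p = 1.19e-05), both with no overlap. Rps15a was 1.31-fold higher with overlapping arrays (adjusted p = 0.0109). Rpl38 read 1.09-fold higher with vector B (adjusted p = 0.0271 in limma). It was near the top on 22 of the 24 arrays, among them all vector B arrays and most vector A arrays, so the scale limits this reading. This call was lost with column set as a block (0.02), under 75th percentile (0.03), median (0.04), no scaling (0.19) and cyclic loess (0.06), and without vector A replicate 2 or 4 or vector B replicate 1, 2 or 3 (0.12, adjusted p = 0.0544 to 0.0717 in limma). That of Rps4x (0.17) was lost with column set as a block (0.07, adjusted p = 0.501), under 75th percentile (0.11) and median scaling (0.12), and without vector B replicate 4 (0.13, adjusted p = 0.0748 in limma). That of Rps6 (0.12) was lost with column set as a block (0.10), under 75th percentile (0.09), median (0.10) and cyclic loess scaling (0.11), and without vector A replicate 1, 3 or 5 or vector B replicate 1, 2 or 3 (0.10 to 0.12, adjusted p = 0.0622 to 0.129 in limma).

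Knockout against wild-type cells compares the genotypes with no electroporation. This was the comparison with the fewest called ribosomal protein genes. Of the 51 genes 5 rose, 8 fell and 38 did not pass, and of all genes 57.7% passed, 26.6% as higher and 31.1% as lower. None of the 13 reached 1.5-fold, which 16.4% of all genes passed. The median difference was -0.05 over the 51 genes and -0.04 over all genes. Large subunit genes rose in 3 and fell in 4 cases and small subunit genes rose in 2 and fell in 4. The arrays did not overlap for 4 of the 51 genes, Rpl10, Rpl35, Rps7 and Rpl30, against 39.6% of all genes. The sides turned with the scaling, to 12 rises and 3 falls under 75th percentile scaling, against 3 and 4 under median scaling, 2 and 4 without scaling and 4 and 6 under cyclic loess. Over all genes these settings gave, in that order, 2110 higher and 2258 lower, 1746 and 2605, 1387 and 2544, and 2227 and 2135. Without scaling the median of all genes was itself -0.10. Within the first 2 column sets only 4 and 3 genes passed. Over all genes 1323 rose and 1420 fell in the first, and 1335 and 1455 in the second.

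Rpl30 rose most in knockout cells. Rpl30 read 12.05, 12.17, 12, 12.06 and 11.98 in knockout cells, against 11.69, 11.74, 11.62, 11.78 and 11.71 in wild-type cells. The groups did not overlap, and Rpl30 was 1.27-fold higher (log2 0.35, SE 0.0464, adjusted p = 9.34e-07). Rps7, which can bind Mdm2 when free, was 1.20-fold higher. Rps7 read 14.89, 14.86, 14.88, 14.94 and 14.86 in knockout cells, against 14.67, 14.64, 14.58, 14.63 and 14.59 in wild-type cells. Its difference was 0.26 (SE 0.0421, adjusted p = 1.02e-05), also with no overlap. Rpl13a was 1.19-fold higher (log2 0.25, adjusted p = 0.0022) with overlapping arrays, and did not pass without scaling (0.20). Rps15a was 1.38-fold lower (log2 -0.47, SE 0.116, adjusted p = 0.00142), again with overlapping arrays. Rpl10 was 1.19-fold lower with no overlap. Rpl10 read 14.83, 14.93, 15.02, 15.02 and 15 in knockout cells, against 15.14, 15.14, 15.31, 15.25 and 15.21 in wild-type cells. Its difference was -0.25 (SE 0.0484, adjusted p = 0.000112). Rpl35 was -0.16 (adjusted p = 0.00285) and did not pass under 75th percentile scaling (-0.08).

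The other 7 calls between knockout and wild type were small, and 6 of them were lost when some single arrays were left out. Rps6 was -0.13 (adjusted p = 0.0158 in limma) and passed whichever array was left out, but not under 75th percentile (-0.06), median (-0.11) or no scaling (-0.15), nor without the third column set (-0.10). Rps10 (-0.12, adjusted p = 0.0453 in limma) was lost without knockout replicate 1 or 3 or wild-type replicate 2 or 5 (-0.10 to -0.08, adjusted p = 0.0936 to 0.146), and under 75th percentile (-0.02), median (-0.08), no scaling (-0.11) and cyclic loess (-0.10). Rplp0 (-0.20, adjusted p = 0.0337 in limma) was lost without knockout replicate 4 or 5 or wild-type replicate 1, 2 or 4 (-0.19 to -0.14). Rpl7a (-0.14) was lost without knockout replicate 1, 3 or 4 or wild-type replicate 1, 4 or 5 (-0.14 to -0.11). Rpl4 (0.16) was lost without knockout replicate 1, 2 or 5 or wild-type replicate 1 or 4 (0.14 to 0.15). Rps9 (0.16) was lost without knockout replicate 1, 2, 3 or 5 or wild-type replicate 1, 2 or 5 (0.09 to 0.17), and Rps4x (-0.16) without knockout replicate 4 (-0.13). Of these, Rplp0 alone passed under all the other scalings. Under median scaling Rpl7a was -0.14, Rpl4 0.09, Rps9 0.16 and Rps4x -0.13, and none of them passed there.

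Where a gene had several kept probes, they often differed. This was so for 9 genes, Rpl21, Rpl23, Rpl29, Rpl31, Rpl38, Rps3, Rps9, Rps19 and Rps24, tested per probe over 10504 probes. Of these probes 78.5% passed for PMCA4b against vector, 67.8% for PMCA4b against knockout, 74.1% for vector against knockout, 50.5% between the vectors and 55.6% for knockout against wild type. With PMCA4b against vector the bright probe of Rpl38, near the top on 22 arrays, differed by 0.04, and the dimmer probe, with a mean of 11.28, by 0.78 (adjusted p = 1.19e-12 in limma). For vector against knockout the bright Rpl38 probe differed by 0.06 and the dimmer one by -0.49. For Rpl29 both probes rose with PMCA4b against vector, by 0.69 and 1.83. Opposite calls were found for Rpl31 with PMCA4b against vector (-0.14 and 0.28) and for Rps19 with PMCA4b against knockout (0.15 and -0.33). For vector against knockout they were found for Rpl23 (0.29 and -0.22) and Rps9 (-0.15 and 0.24). For knockout against wild type, 2 dimmer probes of Rpl23 gave 0.41 and -0.22. Probes of 1 gene can differ by transcript form, near copies or scale, and which applies was not tested.

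Genes with and without a pyrimidine tract at the start are set side by side. With PMCA4b against knockout 6 of the 9 measured genes with a tract rose and 1 fell, with a median of 0.17. Of the 34 genes with a RefSeq start and no tract 22 rose and 1 fell, with a median of 0.19. With PMCA4b against vector 5 of 9 rose (median 0.13), and of the 34 others 19 rose and 7 fell (median 0.18). For vector against knockout 4 of the 9 rose and 1 fell (median 0.17), and of the 34 others 12 rose and 10 fell (median 0.03). Between the vectors 5 of the 9 rose (median 0.13) and 14 of the 34 (median 0.10). For knockout against wild type 0 of the 9 rose and 4 fell, Rpl35, Rps6, Rps10 and Rps15a (median -0.08), and of the 34 others 4 rose and 4 fell (median -0.05). Rpl35, Rps6 and Rps10 did not pass in that comparison under 75th percentile scaling. Of all genes 35.9% rose and 33.3% fell with PMCA4b against knockout, and 38.3% and 40.5% with PMCA4b against vector. The shares were 39.6% and 34.8% for vector against knockout, 27.9% and 25.5% between the vectors, and 26.6% and 31.1% for knockout against wild type. No test was made between these groups of genes.

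Genes that make ribosomes had larger median differences with PMCA4b than the 51 ribosomal protein genes together. The 12 ribosomal protein genes with a mean under 13 had medians of 0.58 against vector and 0.40 against knockout. The 2 sets were not matched for signal level, and the part of compression at the top of the scale was not tested. Of 37 measured ribosome biogenesis genes 34 rose and 3 did not pass with PMCA4b against knockout (91.9% called, against 69.3% of all genes), with a median of 0.54. Against vector 31 rose and 2 fell (89.2% called, against 78.8% of all genes), with a median of 0.59. Polr1e, a subunit of RNA polymerase I, was 2.51-fold higher than in knockout cells (log2 1.33, SE 0.0572, limma adjusted p = 8.52e-16). Its mean was 10.95 with PMCA4b, 10.01 with vector B, 9.66 with vector A, 9.62 in knockout and 9.92 in wild-type cells. Nop56, a core protein of the snoRNPs that methylate ribosomal RNA, was 3.83-fold higher than with vector (log2 1.94, adjusted p = 4.31e-19), and Mrto4, a nuclear counterpart of Rplp0 on the immature large subunit, 4.08-fold higher (log2 2.03, adjusted p = 6.83e-19). Mrto4 averaged 10.49 with PMCA4b, 8.66 with vector B, 8.26 with vector A, 10.46 in knockout and 10.36 in wild-type cells. As for Rplp0 and Rps13, the vector groups were the low ones, and Mrto4 was 4.00-fold lower with vector than in knockout cells (adjusted p = 1e-18). For vector against knockout 11 of the 37 rose and 15 fell (70.3% called, against 74.4% of all genes). Pes1, needed to process the large subunit's RNA, was 2.13-fold higher. For knockout against wild type 4 rose and 14 fell (48.6% called, against 57.7% of all genes), all under 1.5-fold, among them Fbl, the methylase of those snoRNPs (-0.27), Nhp2 (-0.29) and Heatr1 (-0.31). Between the vectors 14 rose and 5 fell with vector B (51.4% called, against 53.4% of all genes).

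Translation factors gave 24 rises and 1 fall among 29 genes with PMCA4b against knockout (86.2% called, against 69.3% of all genes, median 0.32). Against vector they gave 21 rises and 2 falls (79.3% called, against 78.8% of all genes, median 0.24). Eif3b, a scaffold subunit of initiation factor eIF3, averaged 12.23 with PMCA4b, 10.29 with vector B, 10.28 with vector A, 11.44 in knockout and 11.67 in wild-type cells. It was 3.87-fold higher with PMCA4b than with vector (log2 1.95, adjusted p = 2.19e-20 in limma) and 1.73-fold higher than in knockout cells. Eif5a, which helps peptide bond formation at difficult sites, was 1.83-fold higher than with vector. Vector against knockout gave 11 rises and 7 falls (62.1% called), vector B against vector A 10 and 4 (48.3%), and knockout against wild type 5 and 7 (41.4%), all 3 below the shares of all genes. In the last of these Eif2s2, the beta subunit of initiation factor eIF2, was 1.45-fold lower (adjusted p = 1.15e-07 in limma).

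Of 70 measured mitochondrial ribosomal protein genes 53 rose and 3 fell with PMCA4b against vector (80% called, median 0.42), and 43 rose and 5 fell against knockout (68.6% called, median 0.23), shares near those of all genes. Mrps5 was 2.76-fold higher than with vector and Mrpl50 2.15-fold higher than in knockout cells (limma adjusted p = 1.73e-16 and 4.83e-14). For vector against knockout 14 rose and 38 fell (74.3% called, against 74.4% of all genes), with a median of -0.14. Knockout against wild type gave 16 rises and 12 falls, and vector B against vector A 18 and 10 (40% called in each). Both shares are below those of all genes, 57.7% and 53.4%.

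Among 12 genes that control ribosomal protein genes or their RNAs through Myc, mTORC1 and related factors, 4 rose and 5 fell with PMCA4b against vector (75% called), and 2 rose and 5 fell against knockout (58.3% called), both shares below those of all genes. Myc averaged 8.44 with PMCA4b, 6.78 with vector B, 6.91 with vector A, 6.76 in knockout and 6.91 in wild-type cells. It was 3.03-fold higher than with vector (log2 1.60, adjusted p = 2.19e-12) and 3.21-fold higher than in knockout cells (log2 1.68, adjusted p = 1.62e-11). Mxd4, which competes with Myc for its partner Max, was 3.18-fold lower than with vector (log2 -1.67) and 3.57-fold lower than in knockout cells (log2 -1.84), each with no overlap. Rheb, the small GTPase that activates mTORC1, was 1.58-fold lower than with vector, and Mtor was 2.16-fold lower with vector than in knockout cells. Of these 12 genes 2 rose and 4 fell for vector against knockout (50% called, against 74.4% of all genes) and 1 rose and 3 fell for vector B against vector A (33.3%, against 53.4%). For knockout against wild type 5 rose and 2 fell (58.3%, against 57.7%), and Mxd4 was 1.54-fold higher. A further 5 genes linked to nucleolar stress and p53 gave 2 rises and 3 falls with PMCA4b against vector (100% called, against 78.8% of all genes). They gave 2 and 2 against knockout (80%, against 69.3%) and 3 and 2 for vector against knockout (100%, against 74.4%). Between the vectors 1 rose and 2 fell (60%, against 53.4%). For knockout against wild type 3 rose and 2 did not pass (60%, against 57.7%). With only 5 genes, no test was made on these shares. Cdkn1a, a cell cycle inhibitor induced by p53, was 2.16-fold higher with PMCA4b than with vector and 2.52-fold higher in knockout than in wild-type cells. Cdkn2a went the other way with PMCA4b, 5.14-fold lower than with vector and 17.97-fold lower than in knockout cells. Its mean was 5.96 with PMCA4b, 8.03 with vector B, 8.61 with vector A, 10.13 in knockout and 10.37 in wild-type cells. Rrm2b was 1.62-fold lower with PMCA4b than with vector.

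The rule left out 5 measured genes for close relatives of ribosomal proteins, Fau, Rpl7l1, Rpl22l1, Rpl36al and Rps27l. Fau, whose product is cut to give a small subunit protein, was 1.25-fold higher with PMCA4b than with vector and 1.26-fold higher than in knockout cells. Rpl22l1, the near copy of Rpl22, was 1.79-fold higher with PMCA4b than in knockout cells (log2 0.84, adjusted p = 1.79e-06), while Rpl22 did not pass there (0.00, adjusted p = 0.993 in limma). Rpl7l1, which acts in making the large subunit, was 1.75-fold higher with PMCA4b than with vector and 1.62-fold lower with vector than in knockout cells. Of the 5 genes 3 rose with PMCA4b against vector (60% called, against 78.8% of all genes) and 3 against knockout (60%, against 69.3%). For vector against knockout 2 rose and 1 fell (60%, against 74.4%). Between the vectors 2 rose (40%, against 53.4%), as did 2 for knockout against wild type (40%, against 57.7%). All these shares are below those of all genes.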

How the data were processed

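RNA of 24 samples was measured on Illumina bead arrays of 25697 probes, with biotinylated cRNA made by the TotalPrep kit per the labels' protocols. The authors deposited intensities, which hold values below 0 and so had background subtracted, with no scaling between arrays. They also deposited a detection p-value for each probe and array, and log2 values that, from the values themselves, were quantile-normalized. The sources used here name no scanner software. Quantile normalization holds all arrays to 1 distribution, so a shift common to all genes cannot be seen.

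The intensities were corrected with normexp, whose background was estimated from the detection p-values, given an offset of 16, quantile-normalized and put on the log2 scale in limma 3.58.1 (R 4.3.3). A probe was kept if detected at p under 0.01 on at least 4 arrays. This kept 11139 probes, and 7675 named genes were each represented by the probe of highest mean. Limma fitted 5 group means to all 24 arrays, and calls were made at 0.05 after Benjamini-Hochberg adjustment across the 7675 genes. "Vector" is the average of the vector A and vector B means. The number of arrays limits the precision. The fit was tested on simulated data.

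The genes, lists and tests were chosen with earlier results of these data known. The named ribosomal protein genes were a list of known role, the 5 largest called changes in each direction of each comparison, the 3 brightest and 3 dimmest of each subunit, and up to 5 with opposed probes. Of each other list up to 4 called genes of smallest adjusted p were named. Genes near the top, genes with a tract and genes whose call rested on 1 array were named in addition, after their values were seen. Alternatives changed the scaling, offset, filter, probe choice, blocks and arrays. Promoters came from RefSeq, GRCm38.p6.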

Additional observations from a re-analysis of the deposited data

Results flagged for a closer look

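Among 190 combinations of 38 named genes and 5 groups, 10 arrays stood apart from their group by Dixon's criterion, which chance alone meets in about 1 of 20 groups. None of these values was weighed further. Rpl12 read 14.88 in vector B replicate 1, with its nearest neighbour at 15.05. Rpl35 read 15.43 in PMCA4b replicate 1 (nearest 15.54), and Rpl4 10.94 in knockout replicate 3 (nearest 11.05). Rps19 read 15.46 in vector B replicate 4 (nearest 15.49), and Rps2 15.46 in vector A replicate 5 (nearest 15.35). The other 5 lay near the top of the scale. They were Rpl41 at 15.95 (nearest 15.98) and Rps12 at 15.88 (nearest 15.89), both in vector B replicate 2, Rplp1 at 15.98 (nearest 16.02) in wild-type replicate 4 and in vector A replicate 5, and Rps20 at 15.85 (nearest 15.80) in PMCA4b replicate 5.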

How the results depend on the processing

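Of 4205 recomputations of 137 called gene differences, 3748 kept direction and call, 421 lost the call and 36 turned direction; causes were not tested. Under 75th percentile, median and no scaling and in the third column set, PMCA4b against vector turned for Rpl10 (0.16, 0.10, 0.14 and 0.04), Rpl39 (0.06, 0.00, 0.05 and 0.07) and Rpl31 (0.14, 0.08, 0.13 and 0.03, and 0.07 as a mean of probes), and vector against knockout for Rpl37 (-0.08, -0.01, -0.06 and -0.02). Under 75th percentile and no scaling Rps7 turned with PMCA4b against vector (0.02 and 0.01) and Rps14 for vector against knockout (-0.03 and -0.01), and under 75th percentile scaling Rps20 with PMCA4b against vector (0.01). Within or without column sets, PMCA4b against vector turned for Rpl34 (first set -0.05, without the third -0.02), Rps27 (second -0.13, without the third -0.04) and Rpl35 (first -0.02), and vector against knockout for Rpl34 (first 0.11, second 0.05, without the third 0.08), Rps26 (second 0.12, without the third 0.02) and Rps25 (first -0.04). The others were Rps19 with PMCA4b against knockout (brightest probe not near the top -0.33, mean of probes -0.09) and Rps9 for vector against knockout (mean of probes 0.04). Leaving out 1 array lost 27 of the 137 calls. The median difference moved by more than the spread between arrays, 0.0533, under 75th percentile, median and no scaling: to 0.30, 0.31 and 0.31 for PMCA4b against knockout and to 0.38, 0.32 and 0.37 for PMCA4b against vector. Against vector it was also 0.22 with probes not near the top, 0.09, 0.04 and 0.26 within the 3 column sets, and 0.08 without the third set, an alternative chosen after seeing the data. It was 0.05 for knockout against wild type under 75th percentile scaling and 0.22 between the vectors without scaling. For vector against knockout it was -0.05 under 75th percentile scaling, -0.02 without scaling, 0.10 within the second set and 0.09 without the third set. Counts of called genes within the first 2 sets, which hold fewer arrays, were 17 and 21 for PMCA4b against knockout and 18 and 22 for PMCA4b against vector. They were 19 and 17 for vector against knockout, and 4 and 3 for knockout against wild type. The count for knockout against wild type was also 7 under median scaling, 8 with no filter, 6 without scaling and 7 with only the compared groups in the fit. Over all genes these settings gave, in that order, 1746 higher and 2605 lower, 2030 and 2372 of 16593, 1387 and 2544, and 1907 and 2201. At 0.5 of the highest intensity, 25 probes were near the top. Leaving out 1 array gave counts of 33 to 34 and medians of 0.17 to 0.20 for PMCA4b against knockout, 33 to 38 and 0.14 to 0.17 for PMCA4b against vector, 29 to 33 and 0.03 to 0.04 for vector against knockout, 17 to 20 and 0.09 to 0.12 between the vectors, and 9 to 15 and -0.07 to -0.03 for knockout against wild type. Same-numbered arrays were not shown to be paired: their deviations correlated at -0.0426 to 0.475, over 0.1 in 8 of 46 pairs. Within a column set, 30 same-numbered pairs correlated at 0.00547 to 0.475 (median 0.0744). There 36 differently numbered pairs correlated at -0.063 to 0.132 (median 0.0382). Across sets, 16 same-numbered pairs correlated at -0.0426 to 0.0312. Whether arrays of 1 number share a source was not tested. With the replicate number as a block, 35 genes were called for PMCA4b against knockout, 37 for PMCA4b against vector, 32 for vector against knockout, 21 between the vectors and 12 for knockout against wild type. Over all genes the block gave, in that order, 2807 higher and 2605 lower, 2989 and 3137, 3091 and 2722, 2135 and 1961, and 2084 and 2442. Signal near the top of the scale limits what can be seen for 9 genes, and dim probes limit Rps15a.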
